A study of Mus musculus with 24 samples.

Results

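Genes of fatty acid oxidation and ketogenesis were followed in 24 hepatocyte libraries of aged mice. The set was defined by gene name, with no threshold on measured values but with earlier results of these data known, and held 31 of the 55421 genes listed in the count and FPKM tables. It was divided by the location of the product into 18 mitochondrial, 8 peroxisomal, 3 dual location and 2 ketone body genes. All 31 genes were found and all 31 passed the filter on low counts, which kept 13847 genes. The lowest count of any member in any library was 645, for Crat.

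All animals were C57BL/6J mice by the labels and are described as male by the study. Vehicle or rapamycin, an inhibitor of the kinase mTOR, was given in the feed from the age of 4 months. At 18 months vehicle animals were kept on the normal diet (ND+veh, n = 8), and the others were switched to a high-fat diet, with fat as 60% of calories, for 9 weeks. The high-fat diet was combined with vehicle (HFD+veh, n = 7) or with 42 ppm of rapamycin encapsulated in eudragit (HFD+eRapa, n = 9). The animals of HFD+eRapa had therefore been on rapamycin for months before the diet changed. No group on normal diet with rapamycin is among the samples analysed here, so its effect without the high-fat diet was not measured. Hepatocytes were isolated by liver perfusion and polyadenylated RNA was sequenced. The labels number the libraries as replicates of 1 batch and do not state that each is from a separate mouse. Each library is called an animal below, and where that does not hold the p-values measure only the spread between libraries. Per the study's methods the animals were fed freely up to collection.

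Mitochondrial β-oxidation shortens fatty acids in a repeated cycle. Acyl-CoA synthetases activate the acid, the carnitine shuttle carries it across the mitochondrial membranes, and each turn of the cycle runs through a dehydrogenase, a hydratase, a second dehydrogenase and a thiolase. Peroxisomes run a parallel cycle for very long, branched and dicarboxylic acids and for bile acid precursors, and hand shortened chains to the mitochondria as carnitine esters. The liver turns surplus acetyl-CoA into acetoacetate and β-hydroxybutyrate, the ketone bodies that other tissues burn in fasting. The nuclear receptor PPARα, paired with RXR, is known to activate many of these genes in the liver. It binds direct repeats of the half-site AGGTCA with 1 base between the copies.

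Promoter windows of 300 bases (250 before and 50 after the start site, RefSeq, GRCm38.p6) were at hand for 26 of the 31 genes, in 29 windows. They were searched on both strands for 2 copies of AGGTCA with 1 base between, allowing 2 mismatches in the 12 fixed letters. A match was found in 4 of the 29 windows (13.8%), those of Slc25a20, Echs1, Etfa and 1 of the Acox2 starts, against 3.86% of the 32851 RefSeq promoter windows of the same length. With 1 mismatch allowed, no member window matched (0 of 29, against 0.554% of all windows). The single half-site AGGTCA stood in 4 of 29 member windows (13.8%, Cpt1a, Acadvl, Acadm and Echs1) and in 16.3% of all windows. The longer half-site TCAAGGTCA stood in 0 of 29 and in 0.423% of all. The single half-site is part of both longer motifs, so these searches overlap. A match describes letters in a window and is not a measured binding site. Shown first are the windows of Slc25a20 (chr9:108661886-108662185, plus strand) and Echs1 (chr7:140116372-140116671, minus strand), with the matching letters in capitals. They were picked by expression: Slc25a20 stood above both vehicle groups in every HFD+eRapa animal and Echs1 was called in all 3 comparisons. The 4 genes with a match did not share a large change. Against HFD+veh the log2 fold change was 0.79 for Slc25a20, 0.31 for Echs1, 0.32 for Acox2 and 0.30 for Etfa, which was not called. The median over the members was 0.62. A relation between matches and changes was not tested. The window of Pex11a (chr7:79743082-79743381, minus strand), the member with the largest rise against HFD+veh, held no match. Sequence outside the windows was not searched, so a window without a match does not show that a gene has no such site. The window of Hadha (chr5:30154931-30155230, minus strand) shows the stretch between Hadha and Hadhb. These genes encode both subunits of the trifunctional protein and lie on opposite strands. Their RefSeq start sites are 273 bases apart, and their windows share 228 bases (chr5:30155003-30155230). In Gencode the genes lie closer, with Hadha reaching to 30155162 and Hadhb beginning at 30155248.
Slc25a20: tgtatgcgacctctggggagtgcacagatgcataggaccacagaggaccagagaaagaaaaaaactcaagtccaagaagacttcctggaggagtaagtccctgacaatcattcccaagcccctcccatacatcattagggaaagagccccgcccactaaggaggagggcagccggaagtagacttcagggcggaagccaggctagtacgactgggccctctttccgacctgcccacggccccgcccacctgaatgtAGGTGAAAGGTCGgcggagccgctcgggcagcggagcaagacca
Echs1: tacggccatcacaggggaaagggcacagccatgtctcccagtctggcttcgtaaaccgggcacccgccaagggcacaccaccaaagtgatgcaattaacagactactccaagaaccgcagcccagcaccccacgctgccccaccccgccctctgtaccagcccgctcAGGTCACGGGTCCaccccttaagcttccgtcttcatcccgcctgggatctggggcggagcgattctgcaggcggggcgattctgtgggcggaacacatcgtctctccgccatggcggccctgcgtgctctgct
Pex11a: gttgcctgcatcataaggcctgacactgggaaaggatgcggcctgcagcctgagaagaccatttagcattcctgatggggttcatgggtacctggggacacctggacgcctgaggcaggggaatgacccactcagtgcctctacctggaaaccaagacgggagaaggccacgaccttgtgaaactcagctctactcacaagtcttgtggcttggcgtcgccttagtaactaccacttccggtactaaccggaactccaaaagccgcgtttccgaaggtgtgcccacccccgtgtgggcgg
Hadha: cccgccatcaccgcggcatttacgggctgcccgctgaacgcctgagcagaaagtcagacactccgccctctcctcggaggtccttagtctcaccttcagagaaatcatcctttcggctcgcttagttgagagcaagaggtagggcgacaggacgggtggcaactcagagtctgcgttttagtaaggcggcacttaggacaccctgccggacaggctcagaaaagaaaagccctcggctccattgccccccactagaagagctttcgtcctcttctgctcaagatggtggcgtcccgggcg

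Libraries held 17.7 to 25.9 M counts (M, units of 1000000), and the members took 0.712% to 1.59% of them. As mean ± SD, that share was 1.01 ± 0.0859% in the 8 ND+veh, 0.964 ± 0.150% in the 7 HFD+veh and 1.47 ± 0.118% in the 9 HFD+eRapa animals. The sum over the members was 8271 to 12060 counts per M counts (CPM, scaled by TMM factors) in ND+veh, 6611 to 11490 in HFD+veh and 14220 to 16150 in HFD+eRapa. The lowest HFD+eRapa animal was above the highest animal of both other groups. Hepatocyte markers were at high levels in all groups, with a summed level over 16 genes of 80910 to 204900 CPM in ND+veh, 124500 to 222800 in HFD+veh and 85890 to 195400 in HFD+eRapa. HFD+veh replicate 6 stood apart. It was the lowest of its group for 24 of the 31 members and had the highest summed level of macrophage, lymphocyte, neutrophil and endothelial markers in that group. ND+veh replicate 4 also stood apart, with the highest TMM factor of all libraries (1.295), an albumin share of 5.44% of counts against 8.41% to 12.03% in the rest of its group, and the lowest value of its group for 14 members. Without it edgeR called 0 members higher and 3 lower in HFD+veh against ND+veh, beside 1972 and 1621 of 13727 genes over all. That fit called 21 members higher in HFD+eRapa against ND+veh, beside 798 genes over all. The albumin share was 9.36% to 11.4% in HFD+veh and 3.35% to 9.60% in HFD+eRapa, and its part in the members' values was not tested.

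**Figure D1:**
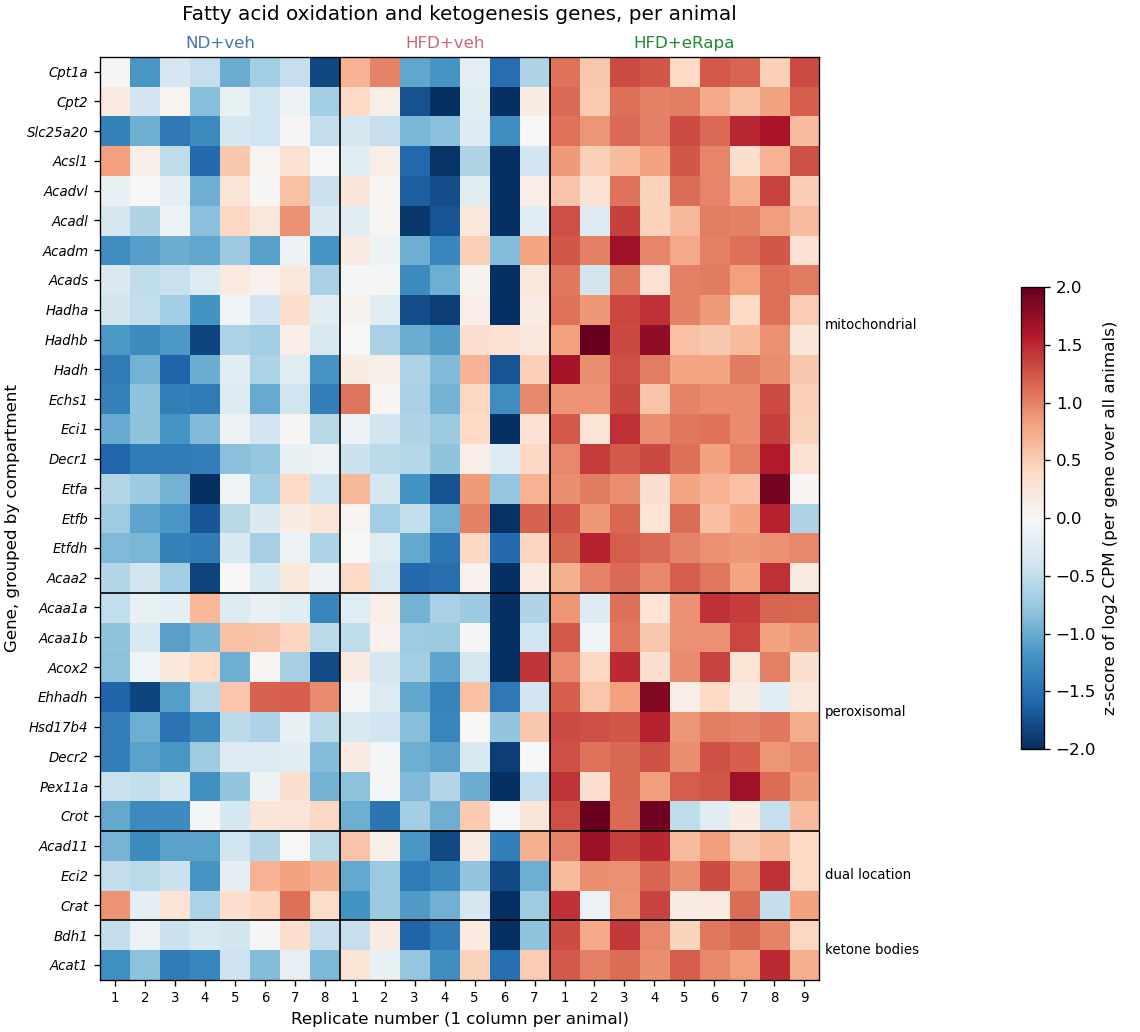
Heatmap of the 31 genes (rows, grouped by location) in 24 animals (columns, grouped as ND+veh, HFD+veh and HFD+eRapa); colour is the z-score of log2 CPM of each gene over all animals, limited to ±2. The HFD+eRapa block is mostly red, and HFD+veh replicate 6 is the darkest blue column.

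The members differed widely in level. Fragments per kilobase and M fragments (FPKM, per length, mean over all animals) were highest for Acaa1b at 883 FPKM, followed by Acaa2 at 619 FPKM, Etfb at 417 FPKM and Crot at 288 FPKM. The lowest were Pex11a at 48.0 FPKM and Crat at 33.2 FPKM. Etfb was 3rd of 31 by FPKM but 31st by CPM. It overlaps Etfbl on the same strand, and the part of that overlap in the low count was not tested.

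**Figure D2:**
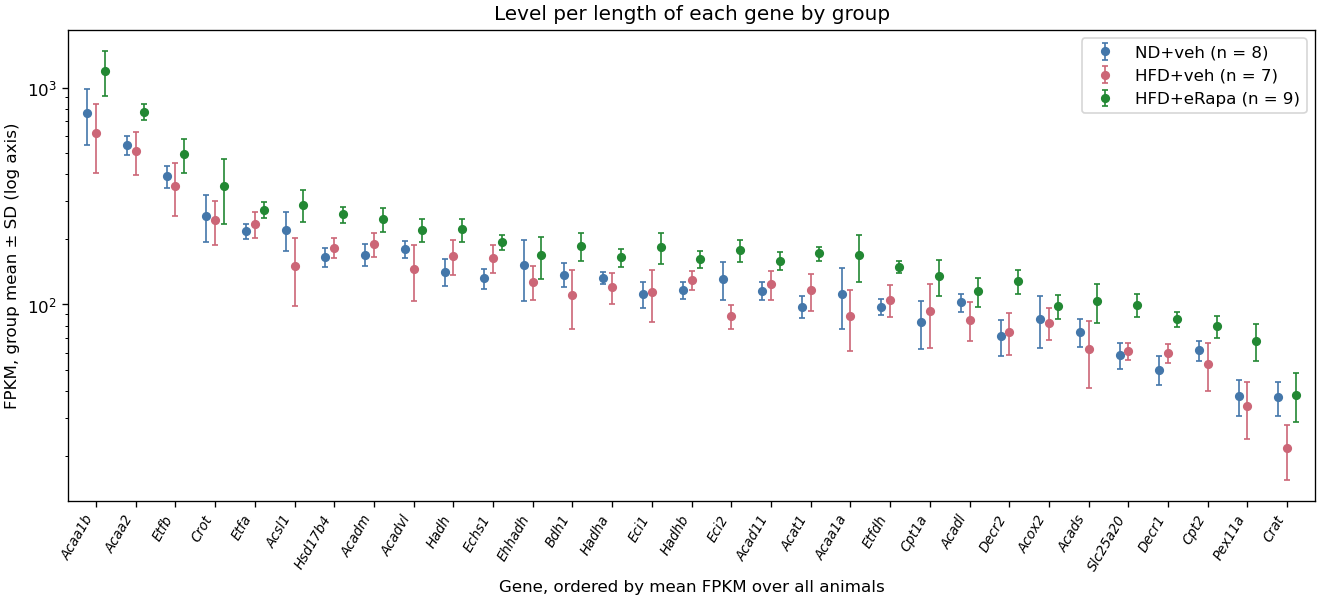
Level of each gene in FPKM (log axis, group mean with SD) in ND+veh (n = 8), HFD+veh (n = 7) and HFD+eRapa (n = 9), ordered by the mean over all animals from Acaa1b (883) to Crat (33.2). The HFD+eRapa mean is the highest of the 3 for every gene.

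The high-fat diet without rapamycin was compared first with the normal diet. Most members were not called: against ND+veh, 1 was higher and 2 were lower in HFD+veh at an edgeR adjusted p under 0.05, and 28 did not pass. Over all 13847 genes tested, 16.0% were higher and 9.86% were lower in this comparison. The members' log2 fold changes ran from -0.72 to 0.35 with a median of 0.02, beside a median of 0.05 over all genes. In none of the 31 were the animals of both groups apart, that is, without overlap of their log2 CPM, against 2.44% of all genes. A gene that missed the threshold is not thereby shown to be equal in both diets. Acsl1, which activates long-chain fatty acids, came close at -0.54 (SE 0.20, edgeR adjusted p = 0.0535), and it passed without ND+veh replicate 4 or without HFD+veh replicate 1, 2 or 7, at -0.66 to -0.59 (adjusted p = 0.0170 to 0.0458). Acsl1 was also called lower by DESeq2 (adjusted p = 0.0381), by limma voom (0.0495), with total counts (0.0297) and in limma-trend fits of FPKM with a pseudocount of 1 (0.0245). Decr1, at 0.29 in edgeR (adjusted p = 0.0661), was called higher by DESeq2 (0.0481), with total counts (0.0269), with at least 10 counts in every library (0.0498), with FPKM (0.0468) and without ND+veh replicate 7 or 8 (0.0365 and 0.0261).

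The 3 members called on the high-fat diet were Echs1, Eci2 and Crat. Echs1, the short-chain enoyl-CoA hydratase, had 175 CPM at the lowest, 186 at the median and 231 at the highest in ND+veh, and 183, 248 and 317 CPM in HFD+veh. The groups overlapped, and 4 of 7 HFD+veh animals were above all ND+veh animals. The rise was 1.27-fold (log2 0.35, SE 0.11, edgeR adjusted p = 0.0252). It missed the threshold without ND+veh replicate 1 or 4 or without HFD+veh replicate 1 or 7, at 0.28 to 0.30 (adjusted p = 0.0566 to 0.0882), with only these 2 groups in the fit (0.34, adjusted p = 0.0899) and with no filter on low counts (0.31, adjusted p = 0.120). Eci2 and Crat, whose products are found in both mitochondria and peroxisomes, fell. Eci2 fell by 0.59 on the log2 scale (SE 0.14, edgeR adjusted p = 0.00483) and Crat fell by 0.72 (SE 0.17, edgeR adjusted p = 0.00548). For both genes all 7 HFD+veh animals were below the ND+veh median. Paox, on the strand opposite to Echs1, had a mean count of 18.6% of that of Echs1, and Dolpp1, opposite to Crat, had 19.9% of that of Crat. The strand setting of the counting is not given in the sources used here, so reads in these overlaps cannot be told apart.

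The second comparison asked how animals on the high-fat diet differed with rapamycin. Nearly the whole set was higher: against HFD+veh, 28 of 31 members were higher in HFD+eRapa and 0 were lower. Over all genes 10.9% were higher and 21.1% were lower, so the members went against the more frequent direction of this comparison. Calls numbered 16 of 18 among mitochondrial, 7 of 8 among peroxisomal, 3 of 3 among dual location and 2 of 2 among ketone body genes. The members' log2 fold changes ran from 0.30 to 1.15 with a median of 0.62, beside a median of -0.04 over all genes. Animals of both groups were apart in log2 CPM in 12 members, against 1.29% of all genes that were apart in this direction. In FPKM some of these groups overlapped, such as those of Pex11a, Cpt2, Acsl1 and Hadha. The 3 members that did not pass were Etfa at 0.30 (edgeR adjusted p = 0.0639), Etfb at 0.39 (0.0721) and Ehhadh at 0.47 (0.0636).

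The third comparison set rapamycin on the high-fat diet against normal diet with vehicle. The members lay above the level of the normal diet as well: against ND+veh, 25 of 31 were higher in HFD+eRapa and 0 were lower, beside 6.93% higher and 6.54% lower over all genes. The median log2 fold change was 0.59 against -0.03 over all genes. Animals were apart in log2 CPM in 17 members, against 2.14% of all genes in this direction. In FPKM some of these groups overlapped, such as those of Pex11a, Cpt2, Cpt1a and Bdh1. The 6 that did not pass were Acsl1, Acadvl, Acadl, Ehhadh, Crot and Crat, with log2 fold changes from 0.15 for Crat to 0.57 for Crot. Each pair of these comparisons shares the libraries of 1 group, so they are not independent of each other. Bulk RNA also does not tell apart fewer cells of a type from less RNA per cell.

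**Figure D3:**
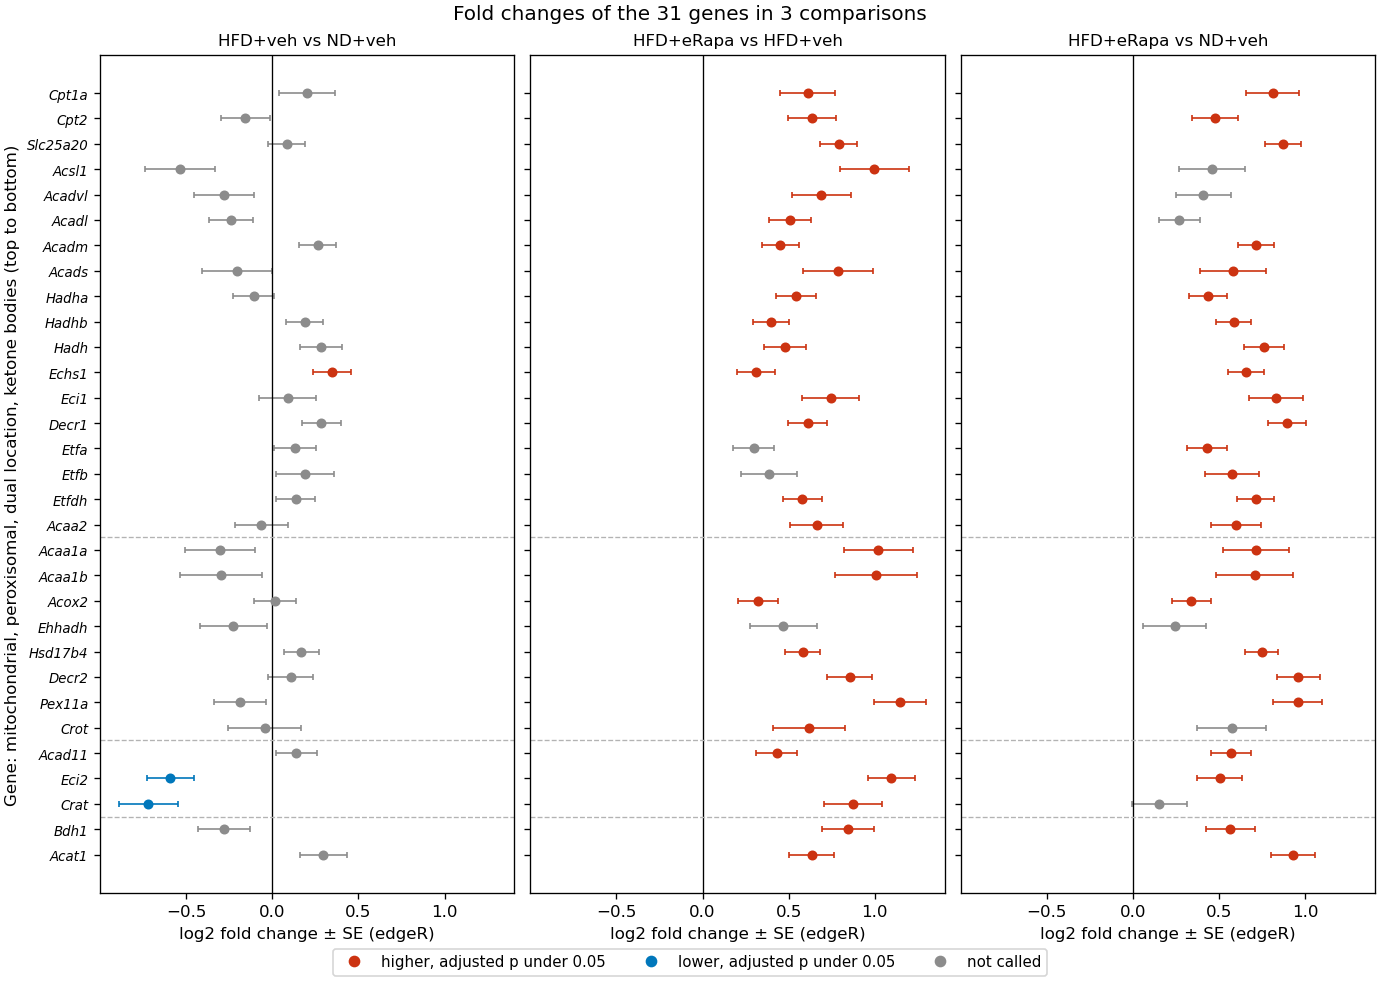
Log2 fold change with SE (edgeR) of the 31 genes in the 3 comparisons, with genes higher (red) or lower (blue) at an adjusted p under 0.05 and the rest in grey. Points lie around 0 for HFD+veh against ND+veh (median 0.02) and to the right of 0 for HFD+eRapa against HFD+veh (median 0.62) and against ND+veh (median 0.59).

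Activation and the carnitine shuttle came first in the pathway. Acsl1 (GRCm38 chromosome 8, 46471037 to 46536051) had 461, 904 and 1226 CPM at the lowest, median and highest in ND+veh, 325, 683 and 919.8 in HFD+veh, and 1010, 1217 and 1479 in HFD+eRapa. All 9 HFD+eRapa animals were above all HFD+veh animals, and 4 of the 9 were above all ND+veh animals. In FPKM the Acsl1 values of HFD+eRapa and HFD+veh overlapped (214.7 to 382 and 81.88 to 241.8 FPKM). The rise over HFD+veh was 2.00-fold (log2 1.00, SE 0.20, edgeR adjusted p = 0.00118), while the difference to ND+veh was 0.46 (adjusted p = 0.115). Cpt1a, the malonyl-CoA-sensitive entry step of the shuttle (chromosome 19, 3322334 to 3385733), had 248, 377 and 460.1 CPM in ND+veh, 273, 373 and 636 in HFD+veh, and 519.7, 674 and 706 in HFD+eRapa. HFD+eRapa was apart from ND+veh but overlapped HFD+veh, where 2 of 7 animals were above all ND+veh animals. In FPKM the Cpt1a values of HFD+eRapa and ND+veh also overlapped (98.53 to 164.9 and 51.15 to 112.9 FPKM). Its log2 fold change was 0.61 against HFD+veh (SE 0.16, edgeR adjusted p = 0.00642) and 0.81 against ND+veh (SE 0.15, adjusted p = 0.000828). Slc25a20, the carnitine-acylcarnitine carrier of the inner membrane (chromosome 9, 108662088 to 108684641), had 80.0, 100.2 and 127 CPM in ND+veh, 84.8, 109 and 126 in HFD+veh, and 154, 181 and 212 in HFD+eRapa. The 2 vehicle groups covered nearly the same range and HFD+eRapa lay above both without overlap. The rise was 0.79 against HFD+veh (SE 0.11, edgeR adjusted p = 3.58e-05) and 0.87 against ND+veh (SE 0.10, adjusted p = 4.73e-06). Cpt2, which reforms acyl-CoA inside the mitochondrion, rose by 0.63 and 0.48 in these comparisons. Its HFD+eRapa animals were apart from both other groups in CPM. In FPKM they overlapped both (lowest 61.0 in HFD+eRapa, highest 70.49 in ND+veh and 70.16 in HFD+veh). The Cpt2 call against ND+veh was lost without ND+veh replicate 4, at 0.43 (edgeR adjusted p = 0.0520), and in limma-trend fits of FPKM.

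The acyl-CoA dehydrogenases, which open each turn of the cycle and differ in the chain length they accept, all rose against HFD+veh. The log2 fold change was 0.69 for Acadvl (very long chains), 0.51 for Acadl (long chains), 0.45 for Acadm (medium chains) and 0.79 for Acads (short chains). For Acads, HFD+veh replicate 6 had 36.9 CPM, against 87.3 to 158 CPM in the others of its group. With the immune marker score described below as a covariate, the calls of Acadvl, Acadl and Acads against HFD+veh were lost. Against ND+veh the medium-chain and short-chain genes rose, Acadm by 0.72 and Acads by 0.58. The call of Acads was lost in 14 of 17 fits that left out 1 library, all but those without HFD+eRapa replicate 2 or 4 or ND+veh replicate 7, at an adjusted p of up to 0.0873. It was also lost with limma voom, total counts, FPKM, no filter on low counts and the replicate number as a block. Acadvl at 0.41 (edgeR adjusted p = 0.0979) and Acadl at 0.27 (adjusted p = 0.140) did not pass. Whether the chain-length genes differed from each other in response was not tested.

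The later steps of the cycle moved in the same direction. Hadha and Hadhb, the subunits of the trifunctional protein that share the divergent promoter shown above, rose by 0.54 and 0.40 against HFD+veh and by 0.43 and 0.59 against ND+veh. Hadh, the short-chain 3-hydroxyacyl-CoA dehydrogenase, rose by 0.48 and 0.76, and Echs1 rose by 0.31 and 0.66. The smaller rise of Echs1 was not called without HFD+eRapa replicate 3 or 8 or without HFD+veh replicate 3, 4 or 6, at 0.26 to 0.29 (edgeR adjusted p = 0.0539 to 0.0818). It was also not called with no filter on low counts or with only the groups compared in the fit. Acaa2, the mitochondrial thiolase and the mitochondrial member with the highest FPKM, rose by 0.66 and 0.60. Electrons from the dehydrogenases pass through the flavoprotein of Etfa and Etfb to the oxidoreductase of Etfdh. Etfdh rose by 0.58 against HFD+veh and by 0.71 against ND+veh, with HFD+eRapa apart from both groups. Etfa and Etfb were called by edgeR against ND+veh, at 0.43 and 0.58, and missed the threshold against HFD+veh. With total counts in place of TMM, Etfa was also called against HFD+veh (0.22, adjusted p = 0.0319). Both were called there without HFD+veh replicate 5 or 7, Etfa at 0.35 in each fit and Etfb at 0.48 and 0.50 (adjusted p = 0.0192 to 0.0367), and Etfa also without HFD+veh replicate 1 and Etfb without HFD+eRapa replicate 9. For Etfb the calls were exchanged in limma-trend fits of FPKM with a pseudocount of 1, at 0.51 against HFD+veh (adjusted p = 0.0168) and 0.32 against ND+veh (adjusted p = 0.165).

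Auxiliary enzymes that prepare unsaturated fatty acids for the cycle rose against both vehicle groups. Decr1, the 2,4-dienoyl-CoA reductase (chromosome 4, 15917240 to 15945507), had 129, 150.3 and 203 CPM in ND+veh, 164, 185 and 239 in HFD+veh, and 231, 297 and 345 in HFD+eRapa. HFD+eRapa was apart from ND+veh, and 8 of 9 animals were above all HFD+veh animals. The rise was 0.61 against HFD+veh (SE 0.11, edgeR adjusted p = 0.000587) and 0.90 against ND+veh (SE 0.11, adjusted p = 6.93e-06). Eci1, an enoyl-CoA isomerase (chromosome 17, 24426641 to 24439348), had 83.8, 101 and 130.2 CPM in ND+veh, 47.3, 112 and 149 in HFD+veh, and 142, 189 and 219.5 in HFD+eRapa. The lowest value, from HFD+veh replicate 6, stood far below the rest of its group. Eci1 rose by 0.74 against HFD+veh (SE 0.16, edgeR adjusted p = 0.00224; 0.63 without that animal) and by 0.83 against ND+veh (SE 0.16, adjusted p = 0.000769).

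**Figure D4:**
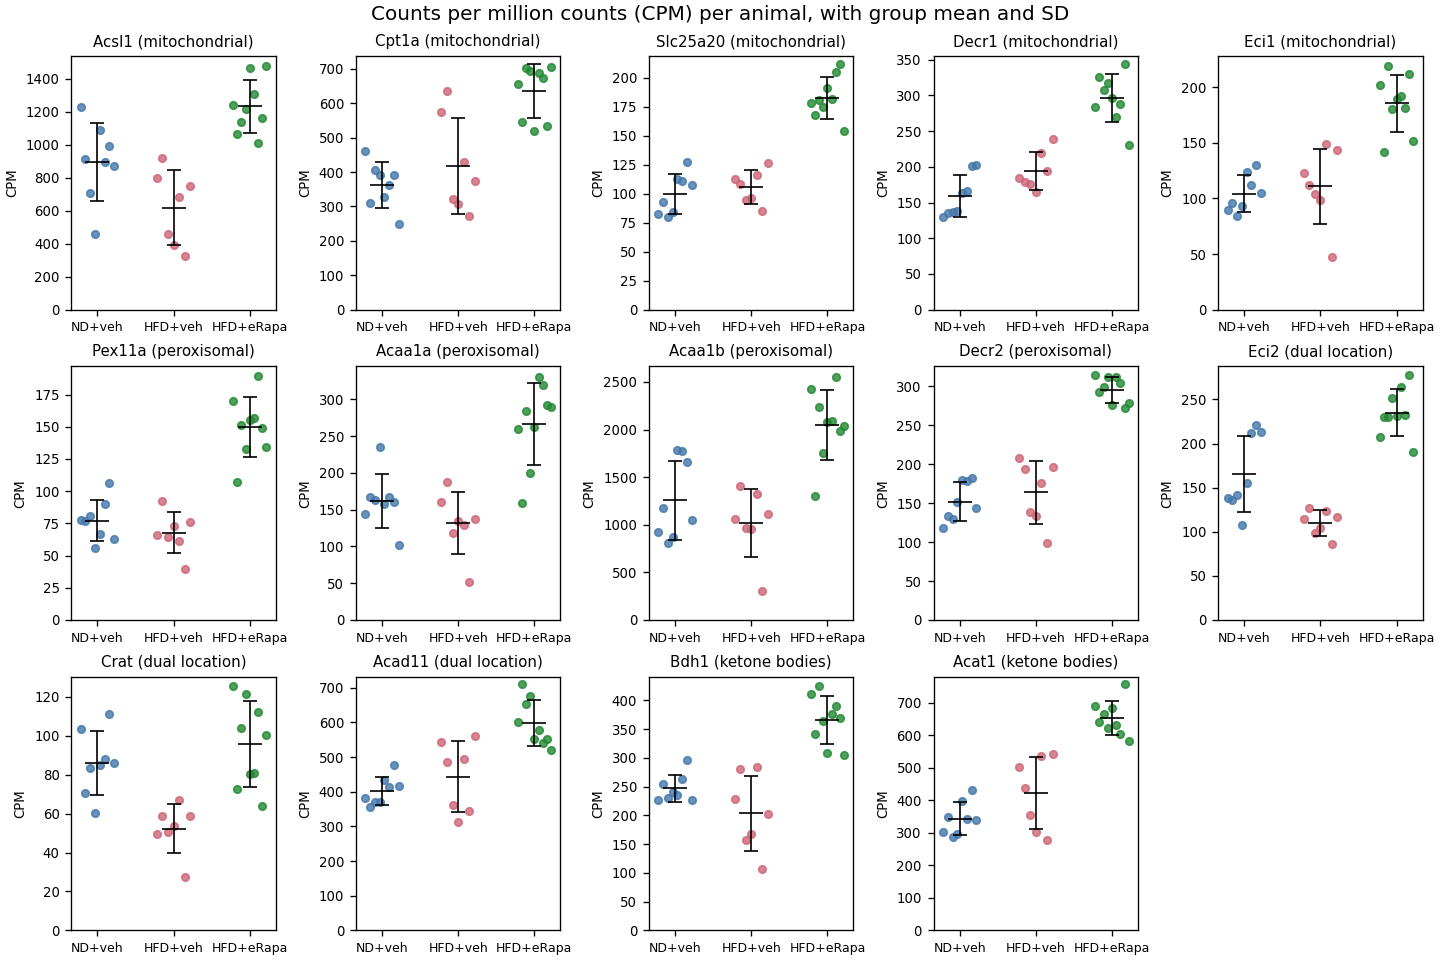
CPM per animal (1 point each, linear axis from 0) of 14 members in ND+veh (n = 8), HFD+veh (n = 7) and HFD+eRapa (n = 9), with the group mean and SD in black. For Slc25a20, Pex11a, Decr2, Bdh1 and Acat1 all HFD+eRapa points lie above all points of both other groups.

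The peroxisomal genes included the largest change of the set. Pex11a, a membrane protein that takes part in peroxisome division (chromosome 7, 79735957 to 79743131), had 55.7, 77.2 and 106.7 CPM in ND+veh, 39.6, 66.3 and 92.1 in HFD+veh, and 107.5, 152 and 189 in HFD+eRapa. All HFD+eRapa animals were above all others in CPM, by a narrow margin to the highest ND+veh animal. In FPKM they overlapped both other groups (lowest 43.98 in HFD+eRapa, highest 49.95 in ND+veh and 49.73 in HFD+veh). The rise was 2.21-fold over HFD+veh (log2 1.15, SE 0.15, edgeR adjusted p = 2.44e-05) and 1.94-fold over ND+veh (log2 0.96, SE 0.14, adjusted p = 6.99e-05). Decr2, the peroxisomal 2,4-dienoyl-CoA reductase (chromosome 17, 26081208 to 26090337), had 119, 147 and 182 CPM in ND+veh, 99.3, 176 and 208 in HFD+veh, and 272, 299 and 315 in HFD+eRapa. The 9 rapamycin animals sat close together and apart from both other groups. Decr2 rose by 0.85 against HFD+veh (SE 0.13, edgeR adjusted p = 0.000105) and by 0.96 against ND+veh (SE 0.13, adjusted p = 1.45e-05).

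Acaa1a and Acaa1b encode the peroxisomal thiolases A and B. Acaa1a (chromosome 9, 119339676 to 119350299) had 102, 162 and 236 CPM in ND+veh, 51.3, 135 and 188 in HFD+veh, and 159, 285 and 331 in HFD+eRapa. Acaa1b (chromosome 9, 119148023 to 119157093) had 810.2, 1109 and 1785 CPM in ND+veh, 307, 1064 and 1407 in HFD+veh, and 1301, 2082 and 2551 in HFD+eRapa. For each gene 8 of 9 HFD+eRapa animals were above all HFD+veh animals and 7 of 9 were above all ND+veh animals. Against HFD+veh the log2 fold change was 1.02 for Acaa1a (SE 0.20, edgeR adjusted p = 0.000959) and 1.01 for Acaa1b (SE 0.24, adjusted p = 0.00326). Against ND+veh it was 0.72 (adjusted p = 0.0121) and 0.71 (adjusted p = 0.0366). HFD+veh replicate 6 held the lowest value of both, and without it the rises over HFD+veh were 0.89 and 0.86. The call of Acaa1a against ND+veh was missed with total counts (0.62, adjusted p = 0.0618) and with FPKM (0.60, adjusted p = 0.0780). The call of Acaa1b against ND+veh was lost in 11 of 17 fits that left out 1 library, all but those without HFD+eRapa replicate 2, 4 or 9 or ND+veh replicate 5, 6 or 7, at an adjusted p of up to 0.0867. The genes are close paralogues, so reads could be split between them. The ratio of Acaa1b to Acaa1a in CPM had medians of 8.65, 7.49 and 7.93 in ND+veh, HFD+veh and HFD+eRapa, with overlapping ranges. Acaa1a also overlaps Myd88 on the opposite strand, which had 8.75% of its count.

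Among the other peroxisomal members, Hsd17b4 was apart from both vehicle groups and Ehhadh was not called by edgeR on all libraries. Hsd17b4, the D-bifunctional protein of the hydratase and dehydrogenase steps, rose by 0.58 against HFD+veh and by 0.75 against ND+veh, with HFD+eRapa apart from both groups. Acox2, the oxidase for branched acids and bile acid intermediates, rose by 0.32 and 0.34. These calls were lost in 9 of 16 and in 13 of 17 fits that left out 1 library, at edgeR adjusted p of up to 0.0825 and 0.116. The exceptions were HFD+eRapa replicates 2, 4, 7 and 9 and HFD+veh replicates 1, 2 and 7 in the first case, and HFD+eRapa replicates 4, 7 and 9 and ND+veh replicate 3 in the other. Both Acox2 calls were also lost with total counts, FPKM, no filter on low counts and the replicate number as a block. Crot, which makes carnitine esters of shortened chains for export from peroxisomes, rose by 0.62 against HFD+veh, and its difference of 0.57 to ND+veh had an edgeR adjusted p of 0.0587. The first call was lost without HFD+eRapa replicate 2 or 4 or HFD+veh replicate 3 or 4, at 0.49 to 0.63 (adjusted p = 0.0511 to 0.0566). It was also lost with FPKM and with the replicate number as a block. Crot had the widest spread of the members in HFD+eRapa, with a coefficient of variation of 37.0%, from 759 to 2026 CPM. Its HFD+eRapa values were 1318 to 2026 CPM in replicates 1 to 4 and 759 to 1116 in replicates 5 to 9. In HFD+veh the order was the opposite, with 551 to 719 CPM in replicates 1 to 4 and 903 to 1076 in replicates 5 to 7. What sets these replicates apart was not tested. Ehhadh, the L-bifunctional enzyme, was called in none of the comparisons by edgeR on all libraries. Against HFD+veh it was called by DESeq2 (0.47, adjusted p = 0.0485), by edgeR on these 2 groups alone (0.48, adjusted p = 0.0328) and without HFD+veh replicate 5 (0.56, adjusted p = 0.0353). It ranged from 269.6 to 655 CPM in ND+veh, from 304 to 548 in HFD+veh and from 434 to 796 in HFD+eRapa, so that all groups overlapped. Within ND+veh it had 269.6 to 392 CPM in replicates 1 to 4 and 544 to 655 in replicates 5 to 8.

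Of the 3 dual location genes, Eci2 and Crat had fallen on the high-fat diet and were higher with rapamycin. Eci2, an enoyl-CoA isomerase (chromosome 13, 34977748 to 35027096), had 108, 149 and 221 CPM in ND+veh, 86.2, 114 and 126.5 in HFD+veh, and 191, 232 and 278 in HFD+eRapa. HFD+eRapa was apart from HFD+veh and overlapped ND+veh. The rise over HFD+veh was 2.14-fold (log2 1.10, SE 0.14, edgeR adjusted p = 1.28e-05), and Eci2 was also above ND+veh, by 0.50 (SE 0.13, adjusted p = 0.00944). Crat, the carnitine acetyltransferase (chromosome 2, 30400471 to 30415813), had 60.5, 85.6 and 111 CPM in ND+veh, 27.2, 53.9 and 67.2 in HFD+veh, and 64.0, 100.2 and 126 in HFD+eRapa. Its HFD+eRapa and ND+veh animals covered almost the same range. The rise over HFD+veh was 0.87 (SE 0.17, edgeR adjusted p = 0.000829), and the difference to ND+veh was 0.15 (SE 0.16, adjusted p = 0.599). Acad11, an acyl-CoA dehydrogenase that also handles hydroxylated acids (chromosome 9, 104063377 to 104127725), had 355, 399 and 476 CPM in ND+veh, 312, 487 and 562 in HFD+veh, and 522, 578 and 712 in HFD+eRapa. It was apart from ND+veh only. Acad11 rose by 0.43 against HFD+veh (SE 0.12, edgeR adjusted p = 0.00848) and by 0.57 against ND+veh (SE 0.11, adjusted p = 0.00137).

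Both ketone body genes were apart in CPM in HFD+eRapa from every vehicle animal. Bdh1, which interconverts acetoacetate and β-hydroxybutyrate (chromosome 16, 31422280 to 31458901), had 226, 238 and 296 CPM in ND+veh, 107, 203 and 283 in HFD+veh, and 305, 369.6 and 425 in HFD+eRapa. It rose by 0.85 against HFD+veh (SE 0.15, edgeR adjusted p = 0.000424) and by 0.57 against ND+veh (SE 0.14, adjusted p = 0.00841). In FPKM the Bdh1 values of HFD+eRapa (146.7 to 224 FPKM) overlapped those of ND+veh (119 to 166) and of HFD+veh (61.75 to 160.7). The call against ND+veh was missed in limma-trend fits of FPKM with a pseudocount of 1 (0.43, adjusted p = 0.0530). Acat1, the mitochondrial acetoacetyl-CoA thiolase (chromosome 9, 53580522 to 53610382), had 287, 341 and 433 CPM in ND+veh, 277, 439 and 544 in HFD+veh, and 584, 642 and 757 in HFD+eRapa. It rose by 0.63 against HFD+veh (SE 0.13, edgeR adjusted p = 0.00157) and by 0.93 against ND+veh (SE 0.13, adjusted p = 3.03e-05). On the high-fat diet alone the values were -0.28 for Bdh1 and 0.30 for Acat1, neither of them called.

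Further genes of the pathways were counted from lists, beside the shares over all genes given above: 16.0% higher and 9.86% lower on the high-fat diet, 10.9% and 21.1% with rapamycin against HFD+veh, and 6.93% and 6.54% against ND+veh. The rest of the ketone body pathway had calls in both directions. Among 9 further genes, 8 were tested. On the high-fat diet 2 were higher and 1 was lower, with rapamycin against HFD+veh 2 were higher and 2 were lower, and against ND+veh 2 were higher and 0 were lower. Bdh2, a cytosolic dehydrogenase, was higher by 1.98 on the high-fat diet (edgeR adjusted p = 0.000192) and lower with rapamycin, where it fell by 1.13 (adjusted p = 0.00605). Oxct1, the transferase of ketone body use that hepatocytes are known to express little of, was the other gene of this kind, at 2.34 and -2.82. Oxct1 was named after its values were seen, at 3.85 ± 4.53 CPM in ND+veh, 19.5 ± 24.9 in HFD+veh and 2.76 ± 2.35 in HFD+eRapa. In the same comparisons the 12 macrophage markers had medians of 2.09 and -2.70. The part of macrophages in the Oxct1 values was not tested. Aacs, which returns acetoacetate to lipid synthesis, was the gene that fell on the high-fat diet, by 1.10 (adjusted p = 0.0492).

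Further genes of oxidation outside the set followed it in part. Of 19 further mitochondrial genes tested, 9 were higher and 0 lower with rapamycin against HFD+veh, and 8 were higher and 1 lower against ND+veh. On the high-fat diet alone 4 were higher and 1 was lower. Hsd17b10, a short-chain hydroxyacyl-CoA dehydrogenase, rose by 0.55 on the high-fat diet and by a further 0.86 with rapamycin, and Acsm3, a medium-chain acyl-CoA synthetase, rose by 0.78 against HFD+veh and 0.94 against ND+veh. Pcca, a subunit of propionyl-CoA carboxylase, rose by 0.73 on the high-fat diet and had 0.00 against HFD+veh with rapamycin. Of 8 genes of carnitine supply, 2 were higher and 1 lower with rapamycin against HFD+veh, 1 was higher against ND+veh, and 1 was higher on the high-fat diet. Slc22a5, the plasma membrane carnitine transporter, rose by 0.74 and 0.67 and was apart from both vehicle groups.

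Peroxisomal genes outside the set gave counts of the same kind. Of 19 tested, 11 were higher and 0 lower with rapamycin against HFD+veh, 8 were higher and 0 lower against ND+veh, and 2 were higher and 1 lower on the high-fat diet. Scp2, whose product holds a peroxisomal thiolase, rose by 0.82 against HFD+veh and by 0.82 against ND+veh, and Phyh, the first enzyme of phytanic acid α-oxidation, rose by 0.90 and 0.59. Of 15 peroxisome assembly genes tested, 8 were higher and 0 lower against HFD+veh, with a median log2 fold change of 0.33, and 4 were higher against ND+veh. Pex19, an import receptor for membrane proteins, rose by 0.56 and 0.57, while Pex6 fell by 0.76 on the high-fat diet and rose by 0.73 with rapamycin.

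Of 20 regulators tested, 5 were higher and 2 lower with rapamycin against HFD+veh, 2 were higher and 3 lower against ND+veh, and 2 were higher and 3 lower on the high-fat diet, where 16.0% and 9.86% of all genes were called. Ppara itself had 73.4 ± 19.4 CPM in ND+veh, 57.5 ± 32.6 in HFD+veh and 119.7 ± 21.3 in HFD+eRapa (mean ± SD). It rose by 1.06 against HFD+veh (edgeR adjusted p = 0.00236) and by 0.71 against ND+veh (adjusted p = 0.0363). The coactivator Ppargc1a, named after its values were seen, fell by 0.89 and by 0.78 in these comparisons, at 5.69 ± 1.02 CPM in HFD+eRapa. Fgf21, a hormone that PPARα is known to induce, fell by 2.50 on the high-fat diet (adjusted p = 0.000910) and had 0.16 with rapamycin against HFD+veh (adjusted p = 0.805).

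Known PPARα targets outside the set were mostly higher with rapamycin, with some calls the other way. Of 16 tested, 10 were higher and 1 lower with rapamycin against HFD+veh, 7 were higher and 2 lower against ND+veh, and 2 were higher and 5 lower on the high-fat diet. Their median log2 fold changes were 0.87, 0.53 and -0.35 in that order. The log2 fold change was above 0 for 14, 12 and 5 of the 16. The list shares 2 genes with the lists above. Cyp4a10, a fatty acid ω-hydroxylase, rose by 1.02 and 0.89, and Vnn1, a pantetheinase, rose by 0.79 and 1.57. Acot1, a cytosolic acyl-CoA thioesterase, fell by 2.32 on the high-fat diet, rose by 1.46 with rapamycin and was still lower than in ND+veh, at -0.86. Pdk4, which restrains glucose oxidation, fell by 1.99 on the high-fat diet and had 0.41 with rapamycin (edgeR adjusted p = 0.468), with HFD+veh apart from ND+veh. Ucp2 was the gene lower with rapamycin, at -2.03, after a value of 2.21 on the high-fat diet. The 12 macrophage markers had medians of -2.70 and 2.09 in these comparisons, and the part of macrophages in the Ucp2 values was not tested.

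Genes of malonyl-CoA and fatty acid synthesis, the opposing pathway, were mostly called against the normal diet. Of 12 tested, 6 were lower and 0 higher on the high-fat diet, 7 were lower and 0 higher in HFD+eRapa against ND+veh, and 1 was higher and 1 lower in HFD+eRapa against HFD+veh. Acacb, the carboxylase whose malonyl-CoA is known to inhibit Cpt1a, had 194 ± 72.5 CPM in ND+veh, 77.9 ± 37.5 in HFD+veh and 74.8 ± 21.0 in HFD+eRapa (mean ± SD). It fell by 1.32 on the high-fat diet (edgeR adjusted p = 0.00466) and had -0.06 with rapamycin against HFD+veh (adjusted p = 0.901). Scd1, the stearoyl-CoA desaturase, fell by 1.65 and Fasn, the fatty acid synthase, by 1.31 on the high-fat diet. Mlycd, which degrades malonyl-CoA, was the gene higher with rapamycin against HFD+veh, at 0.63, and Acly, which makes cytosolic acetyl-CoA, the gene lower, at -0.67.

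Markers of other liver cells moved with the same groups. The summed level of 12 macrophage markers had a median of 265 CPM in ND+veh (46.0 to 1288), 2560 in HFD+veh (178 to 4736) and 202 in HFD+eRapa (15.0 to 1049). With rapamycin against HFD+veh, 10 of 12 macrophage, 10 of 10 endothelial, 10 of 10 stellate, 2 of 3 lymphocyte, 2 of 3 neutrophil and 1 of 3 cholangiocyte markers tested were lower. Against ND+veh, 5 of 10 stellate markers were lower, 1 of 3 cholangiocyte markers was higher, and none of the macrophage, endothelial, lymphocyte or neutrophil markers was called. On the high-fat diet 5 of 12 macrophage, 2 of 3 lymphocyte, 2 of 3 neutrophil, 1 of 10 endothelial, 2 of 10 stellate and 3 of 3 cholangiocyte markers were higher. No marker of these lists was at 0 in all libraries. Of 16 hepatocyte markers Apoa1 alone was called, at -0.68 on the high-fat diet and 0.71 with rapamycin against HFD+veh.

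An immune marker score was the mean z-score of 18 genes, the 12 macrophage, 3 lymphocyte and 3 neutrophil markers tested. It was thus mostly a macrophage score and held no endothelial, stellate or cholangiocyte marker. The score ran from -1.21 to 0.83 in ND+veh, from -0.52 to 1.67 in HFD+veh and from -1.59 to 0.57 in HFD+eRapa. With this score as a covariate, 19 of 31 members were called higher with rapamycin against HFD+veh, with a median log2 fold change of 0.55, beside 429 of 13847 genes higher over all. The 9 calls lost were those of Cpt1a, Cpt2, Acadvl, Acadl, Acads, Echs1, Acaa2, Acox2 and Acad11. Pex11a at 0.98, Eci2 at 1.10 and Slc25a20 at 0.77 were among those that passed. Against ND+veh 26 members were called higher with the covariate, beside 1243 genes higher over all, and on the high-fat diet 1 was higher and 2 were lower, beside 602 and 640 genes over all. The part of these cells in the members' values was not otherwise tested. Without HFD+veh replicate 6, 26 members were called higher against HFD+veh, with Echs1 and Acox2 lost, beside 1232 of 13910 genes higher over all. The values were then 1.06 for Pex11a, 1.06 for Eci2 and 0.76 for Slc25a20.

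**Figure D5:**
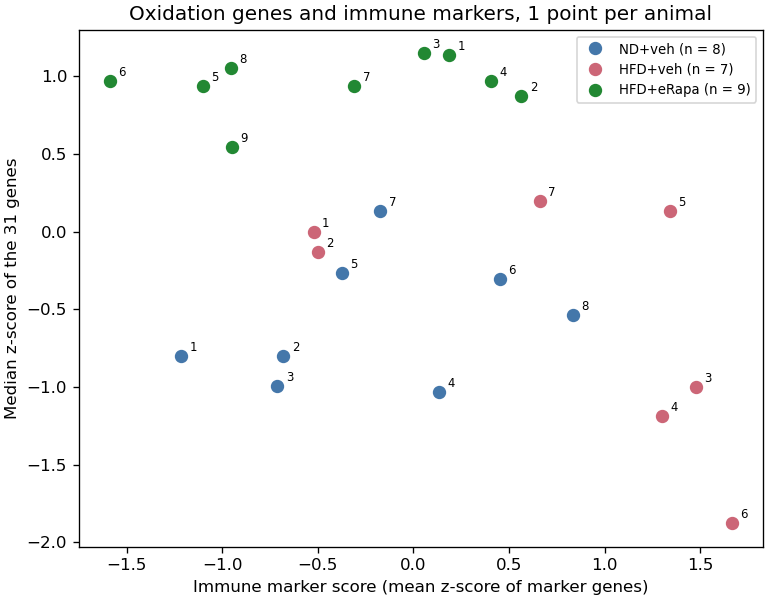
Median z-score over the 31 genes (vertical axis) against the immune marker score (horizontal axis), 1 point per animal with its replicate number. The 9 HFD+eRapa animals lie between 0.55 and 1.15 on the vertical axis, above all animals of ND+veh and HFD+veh, which reach 0.20 at most.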

How the data were processed

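Hepatocyte RNA of 24 libraries from aged mice was analysed, with groups taken from the sample labels. The authors aligned reads with STAR (2-pass) to mm10 with Gencode vM23 and filtered them with SAMtools 1.1.0. The deposited counts are raw reads per gene from HTSeq 0.11.2, and the deposited FPKM values come from Cufflinks. The strand setting of the counting is not given in the sources used here. Gene coordinates are from Gencode M21 (GRCm38).

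Counts were tested with edgeR 4.0.16 (R 4.3.3; filterByExpr, TMM, glmQLFit robust, glmQLFTest) in 1 fit of all 24 libraries and 3 groups without covariates, with Benjamini-Hochberg adjustment over 13847 genes and calls at an adjusted p under 0.05. SE was obtained from the log2 fold change and its F statistic. CPM was scaled by TMM, and log2 CPM used a prior count of 2. Groups are termed apart where their log2 CPM do not overlap. In FPKM some of the same groups overlapped, so the numbers of members apart hold for CPM only.

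Each member was named. Per-animal values were given for the called members with the largest absolute log2 fold change (5 mitochondrial, 4 peroxisomal, all of dual location and ketone bodies). From each further list up to 6 called genes per comparison with a mean log2 CPM of at least 3 could be named, by size, and some genes are not reported here by name. The members and lists were chosen with earlier results of these data known.

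The labels place all libraries in 1 batch and do not state that each is from a separate animal. No pair of libraries within a group agreed within sampling noise (chi-square per degree of freedom at least 12.9). Alternatives used DESeq2 1.42.0 and limma 3.58.1, other scalings and filters, FPKM with pseudocounts of 1 and 0.1, an immune marker score as covariate, a replicate block and fits that each left out 1 library. The scripts were tested on simulated data.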

Additional observations from a re-analysis of the deposited data

Results flagged for a closer look

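In each of 93 groups of values (31 members in 3 groups of animals), the highest and the lowest animal were compared with the rest by Dixon's gap test, in which chance marks about 5% of groups, here 4.65. In 7 groups 1 animal was set apart. For 5 members it was the low value of HFD+veh replicate 6. Acads had 36.9 CPM in that animal and 87.3 to 158 CPM in the others of the group, and Eci1 had 47.3 CPM against 98.2 to 149 CPM. Acaa1a had 51.3 CPM against 119 to 188 CPM, and Acaa1b had 307 CPM against 953 to 1407 CPM. Crat had 27.2 CPM against 49.6 to 67.2 CPM. The same animal had the highest summed level of macrophage markers of its group, 4736 CPM, and the part of these cells in the low values was not tested. The other 2 were in ND+veh. Acadm had 377 CPM in replicate 7 against 284 to 324 CPM in the others, and Acaa2 had 503 CPM in replicate 4 against 713 to 937 CPM.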

How the results depend on the processing

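No called member reversed its direction under any alternative run. For HFD+veh against ND+veh, with 3 members called, total counts without a scaling factor called 6, beside 3215 of 13847 genes over all. DESeq2 also called 6, beside 4101 of 13847 genes. FPKM with limma-trend called 5, beside 2278 of 11668 genes with a pseudocount of 1 and 1986 with 0.1. With the replicate number as a block 5, 28 and 21 members were called in the 3 comparisons, in the order of the report. Over all 13847 genes that fit called 2461, 2532 and 1575. After removal of group means, same-numbered libraries of HFD+veh and ND+veh correlated at a mean of 0.316 (-0.360 to 0.726, over 0.1 in 5 of 7 pairs). The means were -0.245 and -0.203 in the rapamycin comparisons. Whether libraries with the same number share an order or a processing step was not tested. Leaving out 1 library at a time gave 2 to 5 calls for HFD+veh against ND+veh (5 without ND+veh replicate 7), 25 to 30 for HFD+eRapa against HFD+veh and 21 to 25 for HFD+eRapa against ND+veh. Over all genes, 2617 of 13822 were called at 2 calls (without ND+veh replicate 1) and 2940 of 13833 at 5. Against HFD+veh, 1117 of 13914 genes were higher at 25 calls (without HFD+veh replicate 3) and 1387 of 13938 at 30 (without replicate 5). Against ND+veh, 798 of 13727 were higher at 21 calls (without ND+veh replicate 4) and 879 of 13805 at 25 (without HFD+eRapa replicate 4). In every fit that left out 1 library, 2 of 3, 25 of 28 and 21 of 25 calls were kept. Other alternatives gave 19 to 29 calls (lowest with the immune marker score) and 18 to 28 (lowest with FPKM) in the rapamycin comparisons. Over all genes, 429 of 13847 were higher at 19 calls and 1663 of 13847 at 29 (DESeq2). At 18 calls 465 of 11668 genes were higher (pseudocount of 1), and at 28 calls 1222 of 12935 (only these 2 groups in the fit). Total counts without scaling moved the median of all genes to -0.13 and -0.12 in the rapamycin comparisons, and the members' medians to 0.55 and 0.51. Leaving out ND+veh replicate 4 and HFD+veh replicate 6 together, chosen after seeing the data, gave 4, 26 and 25 calls. Over all 13791 genes that fit called 2300, 3352 and 2050. The lowest count of a member in a library was 645, and the effect of depth on the calls was not tested.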
